A study of Mus musculus with 6 samples.

Results

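The regions described here are the accessible sites of regulatory T cells on mouse chromosome 15 whose start lies between 25 and 40 Mb (GRCm38). There were 516 of them in the list of Foxp3creCREBfl/fl Tregs and 542 in the list of CREBfl/fl Tregs, 1058 of 195270 in both lists together. The stretch was selected because regions in it had been seen to differ between the lists, so the counts that set it apart from other stretches describe that choice and carry no test. Chromosome 14 between the same positions, with 512 Foxp3creCREBfl/fl and 534 CREBfl/fl regions, serves as the comparison.

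Open chromatin of splenic Tregs was profiled by ATAC-seq in 3 libraries of Foxp3creCREBfl/fl mice and 3 of CREBfl/fl mice, all 6 to 12 weeks old. Foxp3creCREBfl/fl mice carry a Cre recombinase driven from the Foxp3 locus and floxed CREB alleles, so that CREB is deleted in cells that express Foxp3. CREBfl/fl mice carry the same floxed alleles without the Cre and are the controls that the labels call wild type. The files used here hold 1 list of peaks per group and none per library, so differences between mice of 1 group could not be measured, and an effect of the genotype cannot be told apart from any other difference between both sets of libraries.

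In ATAC-seq a transposase cuts DNA that is not covered by nucleosomes, and promoters and enhancers in use appear as sites where many fragments pile up. Regulatory T cells are CD4+ T cells that restrain immune responses and are defined by the transcription factor Foxp3. CREB is a transcription factor that binds the cAMP response element, a palindrome found at many promoters, and is activated by cAMP and T cell receptor signaling. Its gene Creb1 lies on chromosome 1, not on chromosome 15.

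The start sites of all 6 Treg markers examined (Foxp3, Il2ra, Ctla4, Ikzf2, Nrp1 and Tnfrsf18) had a peak within 1 kb in both lists, at 48.4 to 121 times the genome background in Foxp3creCREBfl/fl and 47.0 to 116 times in CREBfl/fl. Among markers of B cells, Pax5 had a peak of 26.1 times background in Foxp3creCREBfl/fl and 19.8 times in CREBfl/fl, Ms4a1 one of 7.47 and 3.08 times, and Cd79a had none. Of the markers of other cells, 2 of 4 myeloid genes (up to 28.1 and 21.2 times, with no peak at Csf1r and Lyz2), 2 of 4 genes of CD8 T and NK cells (up to 11.4 and 13.1 times) and 3 of 4 erythroid genes (up to 75.3 and 66.8 times) had one. The part of other cells in the differences below was not tested. Fewer cells with an open site and a less open site in every cell cannot be told apart in such bulk libraries.

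Sequence is shown for 6 sites that mark the extremes of the block: the shared region with the most counting SDs of decrease, the shared regions with the lowest and the highest ratio, the one with the most counting SDs of increase, and the strongest region of each list that lies at least 20 kb from any peak of the other. Each is 151 bases around the summit on the forward strand of GRCm38.p6 from RefSeq, with capitals for a motif found there: TGTGGTT or its reverse complement for RUNX at Trio, TGACTCA for AP-1 at Grhl2 and the core of the CTCF motif near Odf1. No word is marked in the other 3 stretches.
Trio intron, chr15:27828073-27828223: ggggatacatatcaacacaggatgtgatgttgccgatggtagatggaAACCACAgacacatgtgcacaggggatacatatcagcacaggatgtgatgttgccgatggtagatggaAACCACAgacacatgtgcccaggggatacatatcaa
Matn2 intron, chr15:34319581-34319731: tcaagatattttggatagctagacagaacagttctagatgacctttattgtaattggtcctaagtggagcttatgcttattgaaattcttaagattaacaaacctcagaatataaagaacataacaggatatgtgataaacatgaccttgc
Grhl2 intron, chr15:37244456-37244606: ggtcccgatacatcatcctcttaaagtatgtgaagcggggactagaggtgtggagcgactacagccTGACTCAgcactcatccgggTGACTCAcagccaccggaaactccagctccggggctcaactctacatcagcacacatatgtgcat
Odf1 downstream, chr15:38247967-38248117: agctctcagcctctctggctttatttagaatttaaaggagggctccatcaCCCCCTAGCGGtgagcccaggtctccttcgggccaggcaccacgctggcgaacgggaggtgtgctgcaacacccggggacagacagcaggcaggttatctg
Zfp622 downstream, Foxp3creCREBfl/fl-only, chr15:26100261-26100411: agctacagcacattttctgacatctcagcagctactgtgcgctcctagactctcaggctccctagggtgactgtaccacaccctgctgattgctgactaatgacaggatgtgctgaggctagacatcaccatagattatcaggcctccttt
Erich5 intron, CREBfl/fl-only, chr15:34469791-34469941: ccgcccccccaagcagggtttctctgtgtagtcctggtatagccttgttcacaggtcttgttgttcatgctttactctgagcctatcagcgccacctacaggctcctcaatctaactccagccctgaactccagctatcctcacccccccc

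Each list held regions of the block that the other did not. Regions that shared no base with a peak of the other list are called group-only. Of 516 Foxp3creCREBfl/fl regions 63 were Foxp3creCREBfl/fl-only, 12.2% (Wilson 95% interval 9.66 to 15.3), and of 542 CREBfl/fl regions 116 were CREBfl/fl-only, 21.4% (18.2 to 25.1). Over all chromosomes the shares were 6.61% and 16.4%. On chromosome 14 at the same positions they were 6.45% (4.63 to 8.91) and 14.6% (11.9 to 17.9), and on the rest of chromosome 15 they were 6.43% and 17.5%. The intervals cover counting error only.

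**Figure D1:**
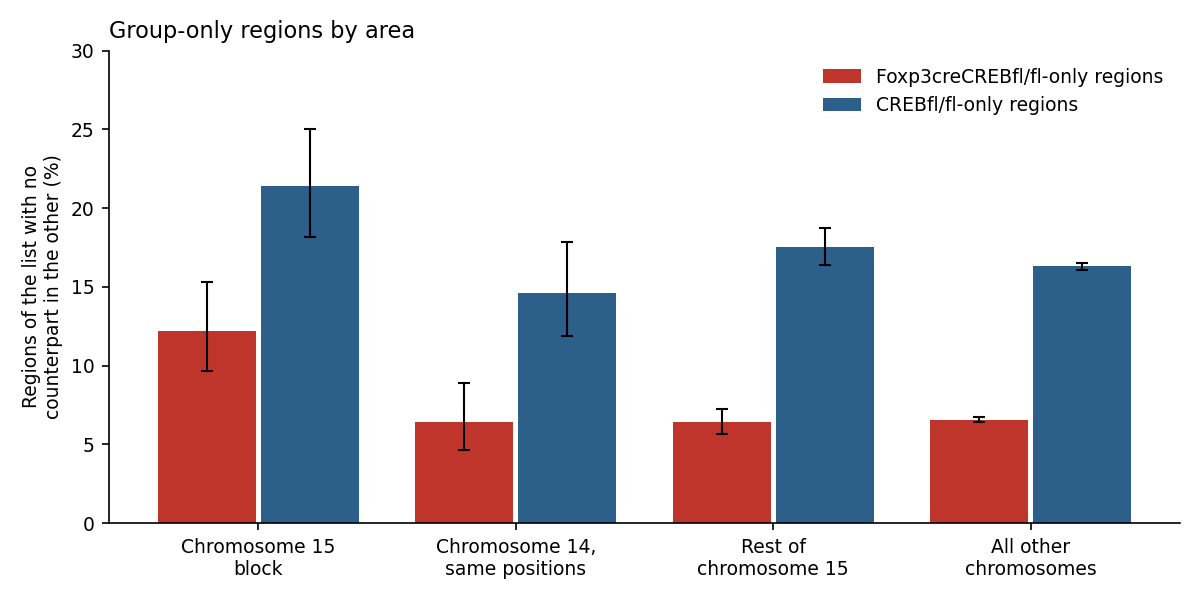
Share of the regions of each list with no counterpart in the other (vertical axis, percent) in 4 areas; bars are Foxp3creCREBfl/fl-only (left) and CREBfl/fl-only (right) with Wilson 95% intervals. The block stands at 12.2% and 21.4%, chromosome 14 at the same positions at 6.45% and 14.6%.

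The group-only regions of the block were mostly far from promoters. By the place of the summit, 35 of the 63 Foxp3creCREBfl/fl-only regions were intergenic, 23 intronic, 1 exonic and 4 within 1 kb of a start site, and of the 116 CREBfl/fl-only regions 59 were intergenic, 48 intronic, 1 exonic and 8 within 1 kb. Within 1 kb of start sites 4 of 90 Foxp3creCREBfl/fl regions (4.44%) and 8 of 80 CREBfl/fl regions were group-only, against 4.20% and 11.1% over all chromosomes. Beyond 1 kb they were 13.8% and 23.4% in the block, against 6.85% and 15.6% on chromosome 14 at the same positions. Over all chromosomes these shares were 7.36% and 17.9%, and on the rest of chromosome 15 they were 7.14% and 19.2%. Both lists thus had their excess over chromosome 14 away from start sites.

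Strong group-only regions were more frequent in the block than on chromosome 14 as well. Among regions with a -log10 q of at least 10, 20 of 381 were Foxp3creCREBfl/fl-only (5.25%) and 36 of 403 CREBfl/fl-only (8.93%), against 1 of 377 (0.265%) and 7 of 413 (1.69%) on chromosome 14. Counting only regions at least 1 kb from any peak of the other list, 38 Foxp3creCREBfl/fl-only (7.36%) and 61 CREBfl/fl-only regions (11.3%) were left in the block, against 13 (2.54%) and 38 (7.12%) on chromosome 14. Both settings were computed for the block and chromosome 14 only. The median pileup of the Foxp3creCREBfl/fl-only regions was 25, and of the CREBfl/fl-only regions 34. The medians were 4.91 and 4.03 times the genome background of their lists.

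Accessibility also differed within the regions that both lists called. The pileup at the summit, the number of fragments stacked there, was divided by the genome background of its list, and the log2 ratio of Foxp3creCREBfl/fl over CREBfl/fl was taken relative to its median over all 82004 shared regions. A region counted as lower or higher when it differed at least 2-fold and by at least 5 counting SDs. By this rule 13 of the 413 shared regions of the block were lower in Foxp3creCREBfl/fl and 8 were higher. The balance of directions depended on the scale: there were 4 lower and 7 higher regions with the fold over the local background in place of the pileup, and 9 lower and 10 higher without the shift to the median. Over all chromosomes 0.117% were lower and 0.0829% higher, and on chromosome 14 at the same positions 0 of 444 were either. On the rest of chromosome 15, 12 of 3279 were lower and 3 higher, 0.457% together, against 0.163% on all other chromosomes. With a looser rule of 1.5-fold and 3 counting SDs there were 33 lower and 21 higher regions in the block and 5 and 0 on chromosome 14.

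The shared regions of the block did not move one way. Their median log2 ratio was -0.02, and on chromosome 14 it was 0.00. They spread more widely, with an SD of 0.54 against 0.29 on chromosome 14 and 0.30 over all shared regions, while counting alone gives an SD of 0.25 in the block and 0.24 on chromosome 14. At least 2-fold ratios in either direction were found in 30 regions of the block (7.26%) and in 2 of chromosome 14 (0.450%). Over all shared regions the share was 0.705%, and on the rest of chromosome 15 it was 1.07%. Both directions took part: the 95% interval of the ratio lay below 0 for 79 regions and above 0 for 58, against 29 and 23 on chromosome 14.

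**Figure D2:**
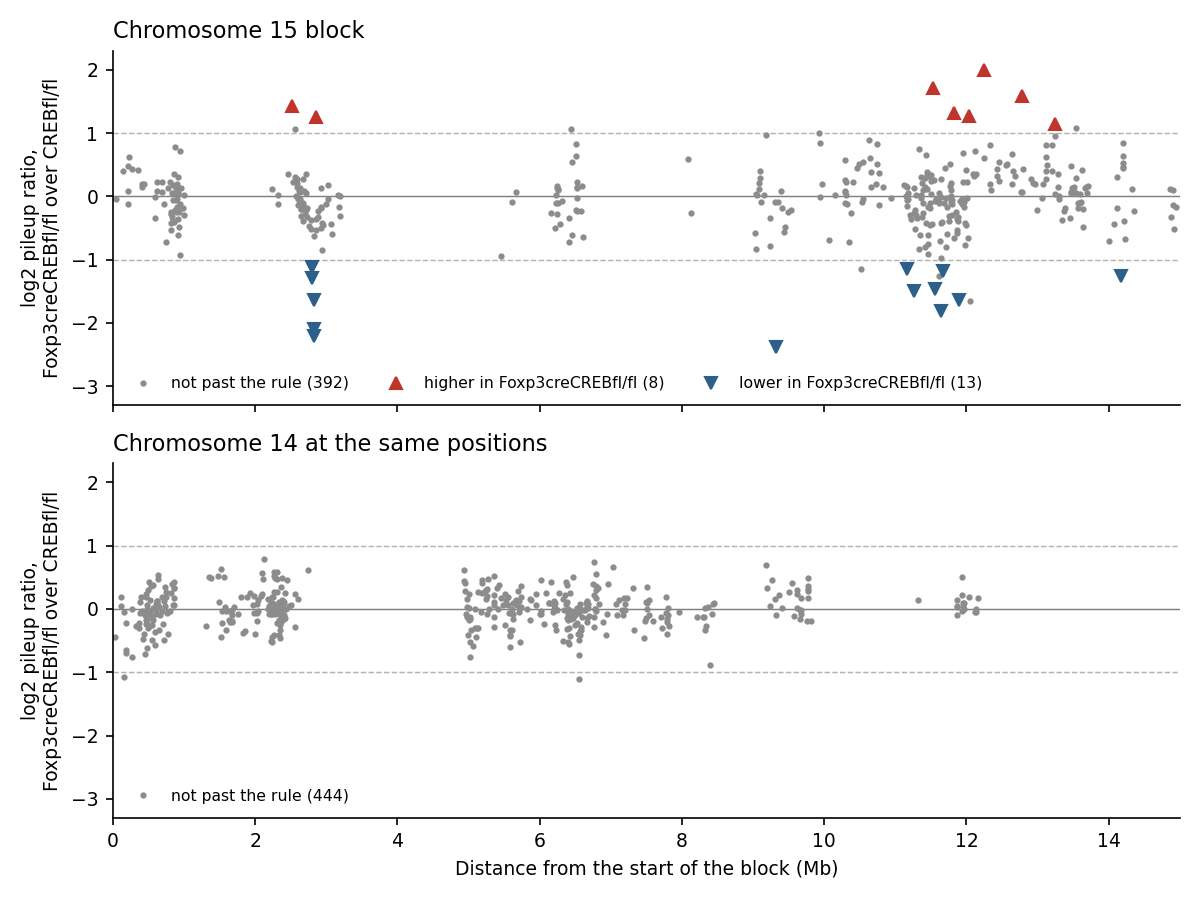
Log2 pileup ratio, Foxp3creCREBfl/fl over CREBfl/fl, of each shared region (vertical axis) by its distance from the start of the block in Mb (horizontal axis), for chromosome 15 above and chromosome 14 at the same positions below; triangles are regions called lower or higher and dashed lines mark 2-fold. The block has 13 lower and 8 higher regions, chromosome 14 none of either.

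No promoter passed the rule, but promoter ratios also spread more widely in the block than on chromosome 14. All 71 shared regions of the block within 1 kb of a start site stayed inside the rule, with ratios from -0.78 to 0.84 and an SD of 0.34, and all 21 regions past it were among the 342 others, whose SD was 0.57. On chromosome 14 the SDs were 0.21 at start sites and 0.30 elsewhere, and over all shared regions they were 0.24 and 0.32. The lowest promoter ratio was that of Laptm4b, a lysosomal membrane protein, with pileups of 134 in Foxp3creCREBfl/fl and 345 in CREBfl/fl and a log2 ratio of -0.78 (95% interval -1.08 to -0.49). The highest was that of Rims2 at 0.84 (0.16 to 1.52), from pileups of 43 and 36. The promoter of Klf10, a zinc finger factor induced by TGF-beta, was among the strongest of the block in both lists, with pileups of 982 and 1463 and a log2 ratio of 0.01 (-0.11 to 0.12).

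The differences varied along the block. Between 29 and 30 Mb and between 32 and 33 Mb neither list had a region, and between 26 and 27 Mb the 1 region was Foxp3creCREBfl/fl-only. From 27 to 28 Mb there were 1 Foxp3creCREBfl/fl-only and 13 CREBfl/fl-only regions, 5 lower and 2 higher shared regions, and a median ratio of -0.17. From 36 to 37 Mb, the densest part with 130 Foxp3creCREBfl/fl and 141 CREBfl/fl regions, there were 16 and 32 group-only regions, 6 lower and 2 higher shared ones. The next Mb went the other way, with 13 Foxp3creCREBfl/fl-only and 5 CREBfl/fl-only regions, 3 higher and 0 lower shared regions and a median ratio of 0.33. Of 163 pairs of neighbouring shared regions no more than 5 kb apart, 108 had the same sign (66.3%), against 114 of 190 on chromosome 14 (60.0%). Where both neighbours had a ratio of at least 0.5 in size, 14 of 17 pairs had the same sign in the block, and chromosome 14 had 2 such pairs, both alike. Neighbouring sites can share fragments and a local background.

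Few regions lay just outside the ends of the block. The last Foxp3creCREBfl/fl region before 25 Mb (chr15:24589058-24589224) was shared and reached a pileup of 36, and the first inside (chr15:25048017-25048132) was shared with 32. At the other end the last inside (chr15:39943493-39944469) reached a pileup of 309 and the first outside (chr15:40131179-40131340) had 34, and both were shared. In the CREBfl/fl list the last region before 25 Mb (chr15:24596377-24596472) was CREBfl/fl-only with a pileup of 31. Its first inside, last inside and first outside were shared, with pileups of 49, 519 and 50.

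Of the 66 protein-coding genes of the block, 54 had at least 1 region in the gene or within 10 kb. A gene is said here to gain a region that is Foxp3creCREBfl/fl-only or higher by the rule, and to lose one that is CREBfl/fl-only or lower. By this count 18 genes gained and 41 lost regions, 15 did both, and 10 did neither. On chromosome 14 at the same positions 28 of 89 genes gained and 45 lost regions, and none had a shared region past the rule, against 10 genes of the block. A region counts for every gene within 10 kb, here and in the gene lists below. Fbxo43, Polr2k and Spag1 are thus among these 10 through the same lower region.

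**Figure D3:**
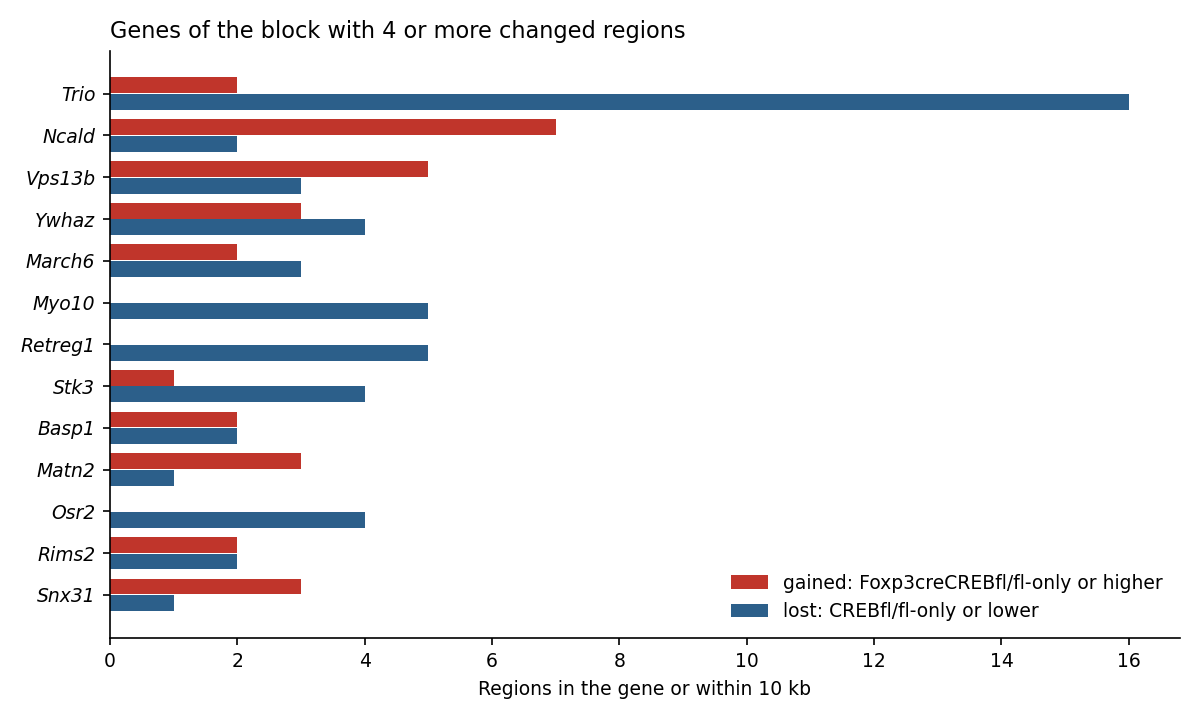
Regions gained (red, upper bar) and lost (blue, lower bar) in Foxp3creCREBfl/fl, counted in the gene or within 10 kb (horizontal axis), for genes of the block with 4 or more such regions. Trio has 2 gained and 16 lost, Ncald 7 gained and 2 lost.

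Trio, which encodes an exchange factor that activates small GTPases such as Rac, had the most changed regions when regions in the gene and within 10 kb were counted. By the nearest start site it had 18 and Ywhaz 19. The gene (ENSMUSG00000022263.10, reverse strand, chr15:27730651-28025848) had 28 shared regions with its flanks, of which 5 were lower and 1 higher. It had 11 CREBfl/fl-only regions and 1 Foxp3creCREBfl/fl-only region. Of the 28 ratios 25 were below 0, 16 of them with the whole interval, and their median was -0.43.

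Of the 16 lost regions of Trio, 3 of the 5 lower ones and 1 of the 11 CREBfl/fl-only ones lay in introns just upstream of an internal start site, and the others were spread over the gene. The region at chr15:27827696-27828415, 4.37 kb upstream of that site, reached a pileup of 73 in Foxp3creCREBfl/fl and 503 in CREBfl/fl, for a log2 ratio of -2.20 (-2.58 to -1.85). The region at chr15:27825425-27825694 had 32 and 204, for a log2 ratio of -2.09 (-2.68 to -1.55). The one at chr15:27826129-27826448 had 56 and 260, for a log2 ratio of -1.63 (-2.08 to -1.21). Between them lay a CREBfl/fl-only region (chr15:27826953-27827226) with a pileup of 148, which at equal accessibility would have been about 99 in Foxp3creCREBfl/fl. Accessibility was thus lower across the whole stretch and not at a single summit. The background that the authors' caller drew from the surroundings was also lower in Foxp3creCREBfl/fl there, 8.43 against 39.2 in CREBfl/fl at the first of these regions, and its part in the result was not tested.

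Another pair of intronic regions, chr15:27795965-27796375 and chr15:27796603-27797176, reached pileups of 96 and 92 in Foxp3creCREBfl/fl and 311 and 337 in CREBfl/fl, ratios of -1.12 and -1.29. Without the shift to the median the first was -0.96 and lost the call. With the fold over the local background in place of the pileup, none of these 5 regions passed the rule (-0.15 to -0.73). The 1 higher region of the gene, chr15:27859673-27859861, reached pileups of 123 and 77, for a log2 ratio of 1.26 (0.83 to 1.69). Nearer the start site CREBfl/fl-only regions reached pileups of 134 (chr15:27925692-27925778, 60 bases from a Foxp3creCREBfl/fl peak) and 107 (chr15:27930868-27930961, 3.48 kb from one). Strong shared sites there were nearly even. At chr15:27923490-27923966 the pileups were 577 and 985, 113 and 117 times background, and the ratio was -0.19 (-0.34 to -0.04). The main promoter (chr15:28024504-28026438) had 328 and 434, for a log2 ratio of 0.18 (-0.03 to 0.39), and the Foxp3creCREBfl/fl-only region of the gene, pileup 57, lay 0.984 kb inside the gene beside it.

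The sequence under the most reduced Trio site is a tandem repeat. Within 150 bases of the summit 83.7% of bases equal the base 68 positions away, and the RUNX word stands 2 times in the printed stretch. Of all 82004 shared regions 10 reach 80% by this measure at any distance from 10 to 150 bases (0.0122%), and no other region of the block does. How many reads aligned uniquely there is not known from the lists, and the part of the repeat in the ratio was not tested. Without this region the block had 12 lower regions.

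**Figure D4:**
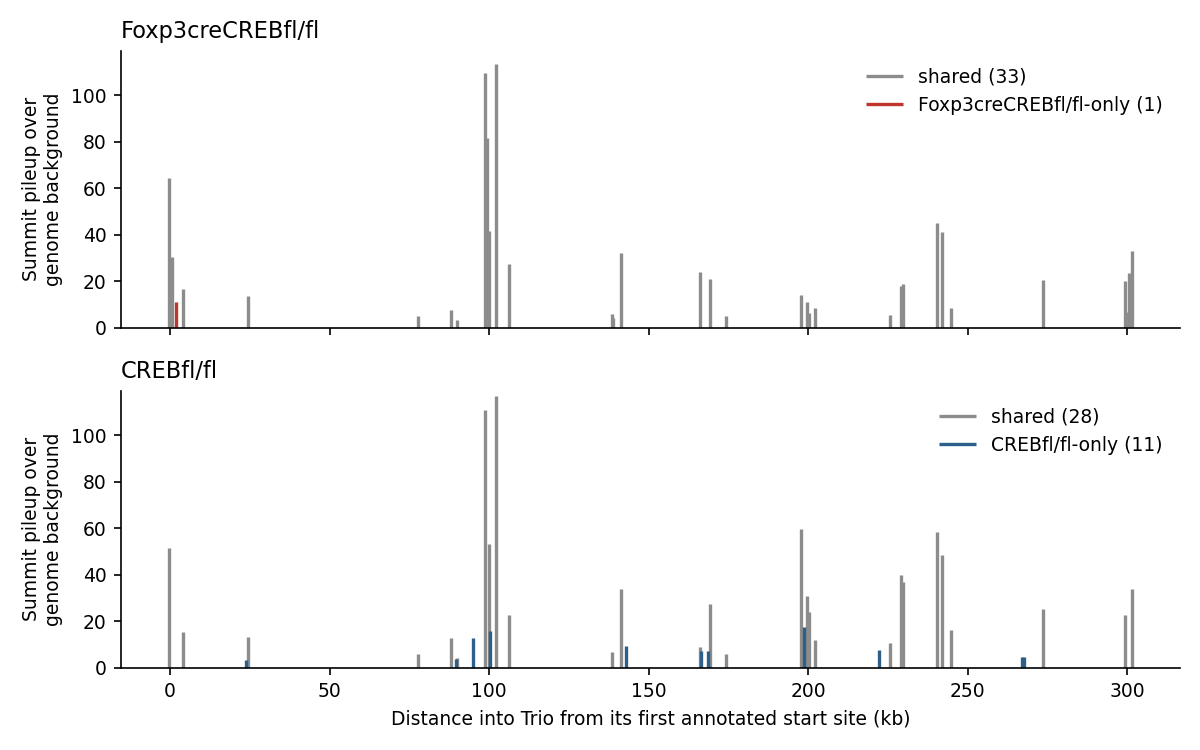
Summit pileup over the genome background (vertical axis) of every region in Trio and within 10 kb, by distance in kb from the start site of the gene (horizontal axis), in Foxp3creCREBfl/fl above and CREBfl/fl below. One intronic site has 14.3 times background in Foxp3creCREBfl/fl and 59.6 times in CREBfl/fl. A tall shared site near 100 kb is of like height in both, with CREBfl/fl-only sites of 15.9 and 12.7 times close to it.

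Genes around Trio differed among themselves. Ank, which encodes a transporter of pyrophosphate and citrate, gained regions: an intronic site at chr15:27517921-27518608 reached pileups of 155 in Foxp3creCREBfl/fl and 86 in CREBfl/fl, for a log2 ratio of 1.43 (1.04 to 1.83). With the fold over the local background it was 0.90 and no longer passed the rule. Its ratios were above 0 in 9 of 10 shared regions, with a median of 0.25. The Ank promoter reached pileups of 368 and 433, for a log2 ratio of 0.35 (0.14 to 0.55). At Retreg1, a receptor for the autophagy of endoplasmic reticulum, 5 of 31 regions (16.1%) were CREBfl/fl-only and none were gained. Of CREBfl/fl regions 21.4% were CREBfl/fl-only in the block and 16.4% over all chromosomes, so Retreg1 did not stand out. The 26 shared regions of Retreg1 had a median of -0.06. The lowest (chr15:25948857-25949482) reached pileups of 82 and 234, for a log2 ratio of -0.93 (-1.31 to -0.56), which does not reach 2-fold. Myo10, a myosin of filopodia, also had 5 CREBfl/fl-only regions, of 17 (29.4%), and no gain, and a median of -0.03. The strongest CREBfl/fl-only region of this end lay 0.5 kb upstream of Zfp622 (chr15:25983761-25983911), with a pileup of 155. It was 116 bases from a Foxp3creCREBfl/fl peak. The Foxp3creCREBfl/fl-only region printed above lay 105 kb from the Zfp622 start site, with a pileup of 74 and the nearest CREBfl/fl peak 104 kb away.

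Among genes of matrix and trafficking, the lowest ratio of the block belonged to Matn2, which encodes a matrilin of the extracellular matrix. This lower region was intronic (chr15:34319445-34319852), 13.0 kb from the start site. It reached a pileup of 18 in Foxp3creCREBfl/fl and 140 in CREBfl/fl, for a log2 ratio of -2.38 (-3.17 to -1.67). The background was the genome value in both lists at this site, and the Matn2 promoter reached pileups of 100 and 159, for a log2 ratio of -0.09 (-0.46 to 0.28). Of the 10 regions of Matn2 this was the 1 loss, and 3 were gained, all Foxp3creCREBfl/fl-only. The strongest of these gains (chr15:34432958-34433169) had a pileup of 46 and lay 3.85 kb from the nearest CREBfl/fl peak. Of the 27 regions of Vps13b, a lipid transfer protein of the Golgi, 5 were gained and 3 lost, all group-only. The group-only shares of the block were 12.2% for Foxp3creCREBfl/fl and 21.4% for CREBfl/fl, against 6.61% and 16.4% over all chromosomes. The strongest gain was intronic (chr15:35638290-35638757) with a pileup of 85, which at equal accessibility would have been about 127 in CREBfl/fl, where the nearest peak was 1.31 kb away. Snx31, a sorting nexin, showed both directions: the intronic region at chr15:36536915-36537103 reached pileups of 96 and 44, for a log2 ratio of 1.71 (1.18 to 2.26), and the region 7.36 kb upstream of the start site (chr15:36562773-36563182) had 39 and 161, for a log2 ratio of -1.46 (-2.01 to -0.95). A Foxp3creCREBfl/fl-only region with a pileup of 92 lay 8.92 kb upstream (chr15:36564427-36564617). The nearest CREBfl/fl peak was 0.826 kb from it. Within 10 kb of 1 start site, one region was thus reduced and another was called in Foxp3creCREBfl/fl only.

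Of the 5 genes of the ubiquitin system with regions, 2 gained and 5 lost at least 1. Over the whole block 18 of 54 genes gained and 41 lost regions. Their 43 shared regions had a median ratio of 0.06. In an intron of Rnf19a, a RING ubiquitin ligase, the region at chr15:36261253-36261776 reached pileups of 59 in Foxp3creCREBfl/fl and 250 in CREBfl/fl, for a log2 ratio of -1.50 (-1.94 to -1.09). A region 2.98 kb upstream of Fbxo43, an inhibitor of the anaphase-promoting complex in meiosis (chr15:36167657-36168120), had 125 and 413, for a log2 ratio of -1.14 (-1.44 to -0.85), a call lost with the local background (-0.93) and without the shift to the median (-0.99). This region is also within 10 kb of Polr2k and Spag1, so it cannot be assigned to 1 gene. Of the 16 regions of March6, a ligase of the endoplasmic reticulum, 2 were gained and 3 lost, all group-only. In the block 12.2% of Foxp3creCREBfl/fl and 21.4% of CREBfl/fl regions were group-only, and over all chromosomes 6.61% and 16.4%. Otulin, which removes linear ubiquitin chains, lost 1 of 15.

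Of the 13 genes of core cell functions, all with regions, 2 gained and 7 lost regions and 5 did neither, beside 18, 41 and 10 of the 54 genes of the block. The median ratio of their 47 shared regions was -0.00431, next to no difference. Upstream of Pabpc1, the cytoplasmic poly(A)-binding protein, the region at chr15:36638933-36639222 reached pileups of 50 in Foxp3creCREBfl/fl and 262 in CREBfl/fl, for a log2 ratio of -1.81 (-2.28 to -1.37). A second one, 57.1 kb from the start site (chr15:36666442-36666995), had 50 and 170, for a log2 ratio of -1.18 (-1.67 to -0.72). Neither passed the rule with the local background (-1.02 and -1.11), nor the second without the shift to the median (-1.03). The strongest CREBfl/fl-only region of the whole block was in the same stretch (chr15:36647957-36648112), with a pileup of 195, about 130 at equal accessibility in Foxp3creCREBfl/fl, and another followed at chr15:36648615-36648745 with 107. Over all regions nearest to the Pabpc1 start site, 2 were Foxp3creCREBfl/fl-only, 6 CREBfl/fl-only, 2 lower and 0 higher.

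Around Ywhaz, which encodes the adaptor 14-3-3 zeta, the changes went both ways. Of the regions whose nearest start site is that of Ywhaz, 6 were Foxp3creCREBfl/fl-only and 12 CREBfl/fl-only, the most of any gene. The region 22.5 kb upstream (chr15:36819293-36819877) reached pileups of 123 and 74, for a log2 ratio of 1.31 (0.89 to 1.75). The strongest Foxp3creCREBfl/fl-only region of the block lay beyond the end of the gene, 26.1 kb from its start site (chr15:36766270-36766477), with a pileup of 93. A CREBfl/fl-only region of pileup 118 lay 2.47 kb upstream (chr15:36799326-36799484). Zfp706, a small zinc finger protein, had 6 nearest regions in each list alone. A region 30.1 kb upstream (chr15:37037771-37038048) reached pileups of 89 and 55, for a log2 ratio of 1.28 (0.77 to 1.79), and a region 99.9 kb from its start site (chr15:36901769-36902273) had 36 and 168, for a log2 ratio of -1.64 (-2.20 to -1.12), a call lost with the local background (-0.97). Near Azin1, which stabilises ornithine decarboxylase by binding antizyme, a Foxp3creCREBfl/fl-only region (chr15:38474074-38474157) reached a pileup of 89 and lay 0.073 kb from a CREBfl/fl peak, and near Atp6v1c1, a subunit of the vacuolar proton pump, a CREBfl/fl-only region (chr15:38602920-38603011) had 92.

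Genes of neuronal and adhesion functions form the next list. All 5 with regions gained and all 5 lost at least 1, and together they held 13 gained and 8 lost regions, where over the whole block 18 of 54 genes gained and 41 lost regions. The median ratio of their 35 shared regions was 0.19. Ncald, a neuronal calcium sensor, accounted for 7 of the gains and 2 of the losses: 6 regions were Foxp3creCREBfl/fl-only, and an intronic one (chr15:37783374-37783687) reached pileups of 70 in Foxp3creCREBfl/fl and 35 in CREBfl/fl, for a log2 ratio of 1.58 (0.98 to 2.21). The Foxp3creCREBfl/fl-only calls at chr15:37773690-37773779, chr15:37773837-37773967 and chr15:37774052-37774135 lay next to each other. The call at chr15:37790984-37791100 lay 0.104 kb from a CREBfl/fl peak. The gains of Ncald, and of the list that holds it, are thus not all separate sites. All 14 shared regions of Ncald had ratios above 0, with a median of 0.41, though the interval lay above 0 for 3 of them. Its promoter (chr15:37791172-37792313) reached pileups of 84 and 93, for a log2 ratio of 0.43 (-0.01 to 0.88). Rims2, a scaffold of the presynaptic active zone, gained 2 and lost 2 of 13 regions, and its 9 shared regions had a median of 0.44. The region at chr15:39172640-39173200, 25.2 kb upstream and so not among these, had 45 and 161. Its log2 ratio was -1.26 (-1.77 to -0.77), a call lost without the shift to the median (-1.11). Of the 7 regions of Basp1, a membrane protein of growth cones, 2 were gained and 2 lost. The gained regions lay 89 and 175 bases from the lost ones, so they are adjoining calls and not separate gains and losses.

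Sites of further regulators lay apart from these groups. Grhl2, a grainyhead factor of epithelia, had the highest ratio of the block: an intronic region (chr15:37244253-37244635) reached a pileup of 85 in Foxp3creCREBfl/fl and 32 in CREBfl/fl, for a log2 ratio of 1.99 (1.39 to 2.62). It holds the AP-1 word 2 times. Between Odf1, a protein of the sperm tail, and Klf10, the region at chr15:38247584-38248267 reached pileups of 262 and 178, for a log2 ratio of 1.14 (0.86 to 1.42). Its neighbour at chr15:38247193-38247498 had 287 and 222, for a log2 ratio of 0.95 (0.69 to 1.21). The neighbour does not reach 2-fold. The first had the highest Foxp3creCREBfl/fl level of the 8 higher regions, 51.5 times background, against 21.1 times in CREBfl/fl, but with the fold over the local background its ratio was 0.58 and no longer passed the rule. Osr2, an odd-skipped zinc finger factor, lost 4 of 11 regions and gained none, while its 7 shared regions had a median of 0.09. The lost regions were CREBfl/fl-only and lay 0.066, 0.1, 0.454 and 1.46 kb from a Foxp3creCREBfl/fl peak. At Stk3, a kinase of the Hippo pathway, 1 of 11 regions was gained and 4 were lost. Of CREBfl/fl regions 21.4% were CREBfl/fl-only in the block and 16.4% over all chromosomes. With 11 regions each, the counts of Osr2 and Stk3 are imprecise beside these shares. The CREBfl/fl-only region printed above, in an intron of Erich5 (chr15:34469820-34469936), reached a pileup of 108 and lay 24.9 kb from the nearest Foxp3creCREBfl/fl peak. A mixed list named for immune or growth signaling had 15 genes with regions, among them Trio, Ank, Matn2 and Grhl2. It also holds genes of other functions, such as matrix, transport and trafficking. Of these 15 genes 8 gained and 13 lost regions, and the median ratio of their 147 shared regions was -0.01. The 3 genes of cilia and sperm with regions lost 3 and gained none. Both lists stand beside 18 gaining and 41 losing genes of 54 in the block.

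**Figure D5:**
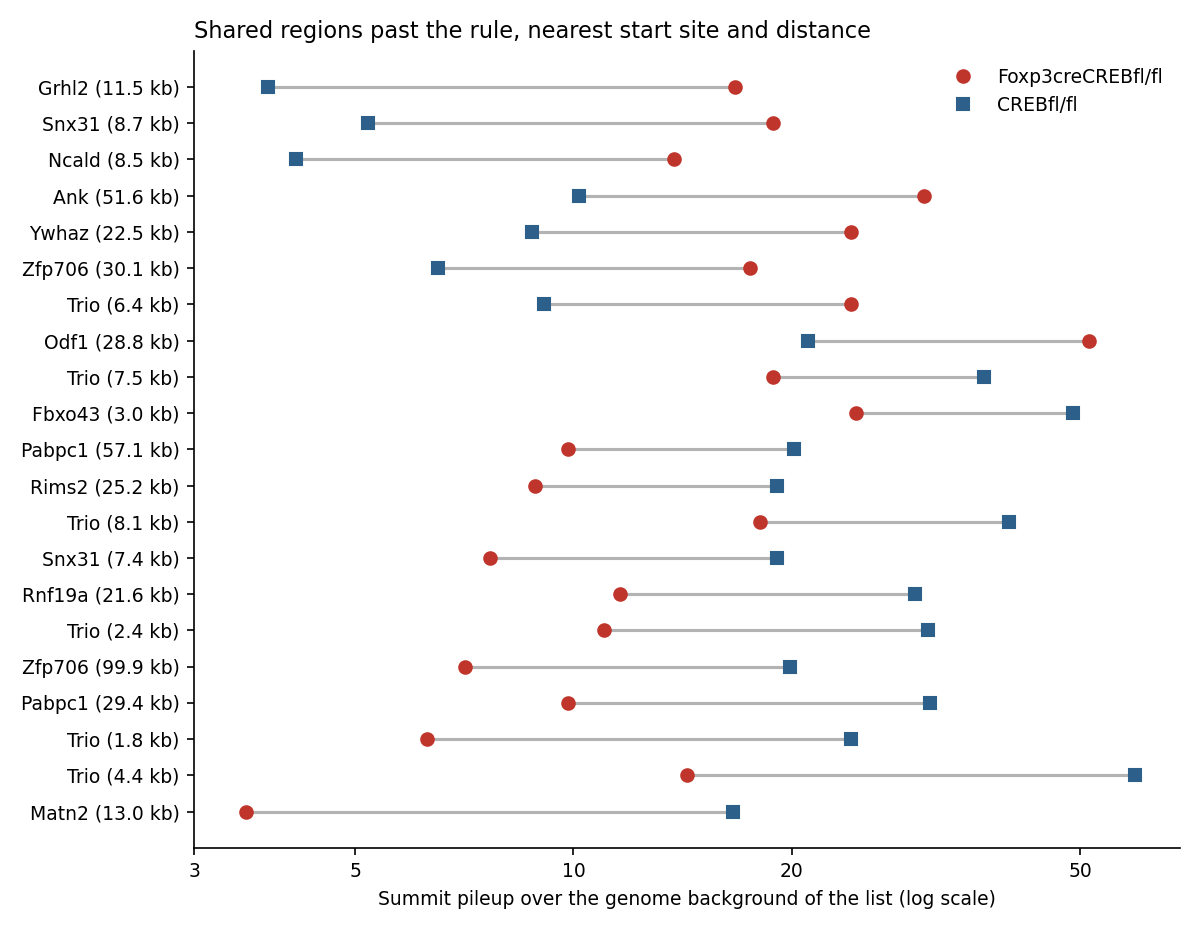
Summit pileup over the genome background of its list (horizontal axis, log scale) in Foxp3creCREBfl/fl (circles) and CREBfl/fl (squares) for the 21 shared regions past the rule, named by the nearest start site and its distance. Grhl2 has the highest ratio with 16.7 times background against 3.79 times, and Matn2 the lowest with 3.54 against 16.6 times.

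On chromosome 14 at the same positions the genes with the most changes had group-only regions and no shared region past the rule. Zmiz1 had 2 Foxp3creCREBfl/fl-only and 9 CREBfl/fl-only regions, Arhgef3 2 and 8, and Cacna1d 5 and 5, and the ratios of their shared regions stayed between -0.71 and 0.79.

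The full element that CREB binds is rare, so 21 changed regions are too few to show whether they hold it less often. The CRE, TGACGTCA, was in 0 of the 21 regions past the rule, which allows a share of up to 15.5% by the Wilson interval, and in 8 of the 392 other shared regions of the block (2.04%) and 1.31% of all shared regions. The CRE half-site TGACG, which every CRE also contains, was in 7 of the 21 (33.3%, 17.2 to 54.6). It was in 22.7% of the other shared regions and in 21.9% of all. Among the 63 Foxp3creCREBfl/fl-only regions 1 had a CRE, and among the 116 CREBfl/fl-only regions 0 had one. These regions are short, with median lengths of 114 and 112 bases against 379 for the shared regions of the block.

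The other words were searched in the same way, and with 21 regions their shares are imprecise. AP-1 (TGACTCA or TGAGTCA) was in 4 of the 21 changed regions (19.05%) and in 12.5% of all shared regions, and within 100 bp of the summit in 4 of the 21 and in 8.55%. RUNX (TGTGGTT) was in 3 (14.3%) and 14.7%, and the core of the CTCF motif in 1 (4.76%) and 6.07%. ETS (CGGAAGT) and NRF1 (GCATGCGC) were in 0 of the 21, and in 5.38% and 1.91% of all shared regions. The control palindrome TAGCGCTA, made of the bases of the CRE, was in none and in 0.105%. All words were searched on both strands, and a match or its absence describes these letters only.

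The changed regions were like the rest of the block in composition. Their median GC content was 48.5%, against 48.6% in the other shared regions of the block. None of the 21 had 50% or more of the bases around the summit masked as interspersed or simple repeats, against 14 of the 392 others (3.57%). Among group-only regions 6 of 63 Foxp3creCREBfl/fl-only (9.52%) and 14 of 116 CREBfl/fl-only regions (12.1%) did, close to the 11.7% and 9.76% of all such regions. The summits of both lists lay 0 to 51 bases apart in the 21 regions, so the same sites were compared.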

How the data were processed

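Reads were trimmed (Trim Galore), mapped (Bowtie2) and filtered (SAMtools) by the authors before MACS2 called the peaks. Tool versions and the joining of libraries were not given in the sources used here. The deposited lists give per peak a score, the fold of pileup over background as a ratio, p and q as -log10, and the summit. No depth per library is known. The methods name mm9, but positions fitted GRCm38 with GENCODE vM21: 0 peaks fell beyond the ends of chromosomes. Of 330 protein-coding start sites of the block 50.0% had a Foxp3creCREBfl/fl peak within 1 kb and 51.5% a CREBfl/fl peak, against 7.27% and 10.6% after a shift by 100 kb.

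The whole-number pileup and its background were recovered from fold and p to within 0.002 of the -log10 p, which succeeded for 99.97% of Foxp3creCREBfl/fl and 99.94% of CREBfl/fl peaks. A local background was in use, although the methods name calling without one: 29.6% and 32.6% of peaks had the genome value, 5.09 and 8.44. The median log2 ratio of shared regions, 0.15, was subtracted. Intervals are Wilson for shares and exact conditional binomial for ratios, at 95%, and reflect counting alone. Since each group has 1 list, no test was made. A region absent from a list was not called there, which does not mean that it had no reads. Samples were grouped by their titles. Calculations in Python 3.11.15 (numpy 2.4.6, pandas 2.3.3, scipy 1.17.1) were tested on simulated data.

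The block, gene lists and rules were chosen with earlier results of these data known. Named are the nearest genes (within 50 kb) of regions past the rule, the 10 strongest group-only regions per list, the 10 genes with most changes, genes of the lists with a change and 3 genes of chromosome 14. Gains, losses and promoters of other genes, and regions without a start site within 50 kb, were named after their values were seen. Some genes that these rules name are not reported here. Alternatives covered overlap, depth, block ends, the rule, the background, gene windows and the motif window.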

Additional observations from a re-analysis of the deposited data

How the results depend on the processing

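Of 49 values recomputed under an alternative, 34 stayed close to the reported one. The Foxp3creCREBfl/fl-only share of the block, 12.2%, was 29.5% when at least 50% of both regions had to overlap, 21.3% with summits within 150 bp, 5.25% at a -log10 q of at least 10 and 7.36% at least 1 kb from the other list. The CREBfl/fl-only share, 21.4%, was 32.8%, 25.3%, 8.93% and 11.3% under the same 4 settings. The shares of chromosome 14 were lower in each: 19.1%, 14.5%, 0.265% and 2.54% for Foxp3creCREBfl/fl, 22.5%, 18.0%, 1.69% and 7.12% for CREBfl/fl. Lower and higher regions, 13 and 8, were 33 and 21 at 1.5-fold and 3 counting SDs. Lower and higher regions were 4 and 7 with the fold over the local background, 9 and 10 without the shift to the median and 8 and 7 without the regions in Trio, so the excess of lower regions turned round under the first 2 of these. Genes that gained regions, 18, were 32 with 50 kb on each side and 29 by the nearest start site. The RUNX word was in 4.76% of changed regions within 100 bp of the summit, against 14.3% in whole regions. All 21 named regions kept their direction in 5 alternatives, but 11 no longer passed the rule with the local background and 4 without the shift to the median. The settings that leave out promoters, regions near the other list, Trio or tandem repeats were chosen after seeing the data. No paired analysis was possible because each group has 1 pooled list whose columns carry no replicate. The same holds for leaving out a replicate.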
